A study of Homo sapiens with 8 samples.

Results

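The nuclear genes of oxidative phosphorylation were chosen by symbol, as every protein-coding GENCODE gene whose name starts with NDUF, UQCR, ATP5 or COX followed by a number, together with SDHA, SDHB, SDHC and SDHD. The rule gave 107 genes of 20033, and it used no measured value. They comprised 46 genes of complex I, 4 of complex II, 9 of complex III, 28 of complex IV and 20 of complex V, assembly factors included. For 105 of them the MANE Select transcript set the 5′ end, and with it the promoter. The 2 readthrough genes ATP5MF-PTCD1 and NDUFC2-KCTD14 had a canonical transcript only, and their promoter windows all but coincide with those of ATP5MF and NDUFC2, so these 4 genes give the values of 2 promoters.

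Oxidative phosphorylation passes electrons from NADH and succinate through complexes I to IV of the inner mitochondrial membrane to oxygen, and the proton gradient so formed drives ATP synthesis by complex V. Most subunits are encoded in the nucleus and the rest on mitochondrial DNA, so that the 2 genomes must supply parts that fit. The nuclear genes are expressed in nearly every cell type, and nuclear respiratory factor 1 (NRF1), the ETS-family factor GABP and YY1 are textbook regulators of their promoters. Several complex IV subunits also have paralogs restricted to muscle, lung or testis.

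The samples were U2OS cells, a human osteosarcoma line, as wild type (WT) or ZBTB48 knockout (KO) clones, with 3 H3K4me3 ChIP-seq libraries per genotype and each library from its own clone. ZBTB48 is a zinc finger protein that binds telomeric repeats and a set of promoters, among them that of MTFP1, which encodes an inner mitochondrial membrane protein with a part in mitochondrial fission. Cells of both genotypes had received interferon gamma (IFNγ), at 250 U/ml over 24 h, and no untreated library was among the samples. H3K4me3, trimethylation of histone H3 at lysine 4, marks active promoters, and each library was represented by its own list of broad peaks, without read counts, so the number of reads behind each peak is unknown here.

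The lists stood apart in a way that did not follow genotype. WT replicates 1 and 2 had a median fold enrichment per peak of 13.4 and 14.0, while WT replicate 3 had 4.19 and KO replicates 1, 2 and 3 had 4.32, 4.60 and 4.65. Peaks of WT replicates 1 and 2 were wider over the whole genome, so the main genotype comparisons below are given with WT replicate 3 alone as well. Of the osteoblast markers, RUNX2, COL1A1 and SPARC had a called promoter in all 6 libraries and COL1A2 and TWIST1 in none. The blood cell markers PTPRC and CD79A, the epithelial CDH1 and the hepatic ALB were called in none, the epithelial EPCAM in all 6 and the muscle gene MYOD1 in 3. The promoter of ZBTB48 itself was called in all 6, and a peak list does not test whether the protein was lost.

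Of the 107 genes, 100 (93.5%) were marked in all 6 libraries, that is, a called peak reached to 1 kb or less from the 5′ end, and the remaining 7 were marked in no library. Among all protein-coding promoters, 65.1% were called in all 6 and 30.3% in none. No gene of the set was called in some libraries and missed in others, against 920 of all 20033 promoters. Each WT library and each KO library therefore called exactly 100, a difference of 0 between genotypes. MTFP1, outside the set, was also called in all 6 libraries, so a call need not register a shorter peak. Of the 100, 97 had the 5′ end itself under a peak in every library, and 100 had a single peak within 1 kb in every library. The exceptions for the 5′ end were ATP5F1D with 5 libraries, COX7B with 3 and COX6B2 with 3.

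The 7 genes without a called promoter were all restricted paralogs or copies of widely used subunits. They were COX4I2, used mainly in lung, COX7A1 of heart and skeletal muscle, COX7B2 and COX8C of testis, NDUFA4L2, which is induced in hypoxia, the copy UQCRHL of the complex III hinge gene UQCRH, and ATP5MGL, the paralog of the complex V gene ATP5MG.

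For each restricted paralog the widely used partner was marked in every library. COX4I1 was covered by 4988, 3857 and 2589 bp in WT replicates 1, 2 and 3 and by 2214, 2116 and 2050 bp in KO replicates 1, 2 and 3, where covered length counts the bp that lie under peaks in a window reaching 3 kb to each side of the 5′ end. COX7A2 had 3364, 3081 and 2115 bp in WT and 1767, 1809 and 1855 bp in KO. COX8A had 3582, 3616 and 2640 bp in WT and 2508, 1986 and 2005 bp in KO. In the same libraries COX4I2, COX7A1, COX7B2, COX8C, UQCRHL and ATP5MGL had 0 bp, which means that no peak was called there at each library's depth and threshold. NDUFA4L2 differed from those 6 genes. Peaks covered 518, 588 and 833 bp of its wider window in WT and 827, 735 and 768 bp in KO, but they lay upstream, ending 1622 bp before the 5′ end in WT replicate 1 and 1583 bp before it in KO replicate 2. The genotypes overlapped (exact permutation p = 0.4).

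Both other restricted paralogs were marked in all 6 libraries. COX6A2, the heart and skeletal muscle form of subunit VIa, had 991, 1149 and 1191 bp in WT and 1296, 1071 and 825 bp in KO. COX6B2, the testis form of subunit VIb, had 1505, 1629 and 1132 bp in WT and 1519, 1152 and 1241 bp in KO. These were the lowest mean lengths of the 100 marked promoters, followed by NDUFA8, and in both the genotypes overlapped. The partner COX6A1, with 1518 to 2882 bp, was longer than COX6A2 in every library. COX6B1, with 1212 to 3246 bp, was longer than COX6B2 in each WT library but shorter than it in KO replicates 1 and 3.

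**Figure D1:**
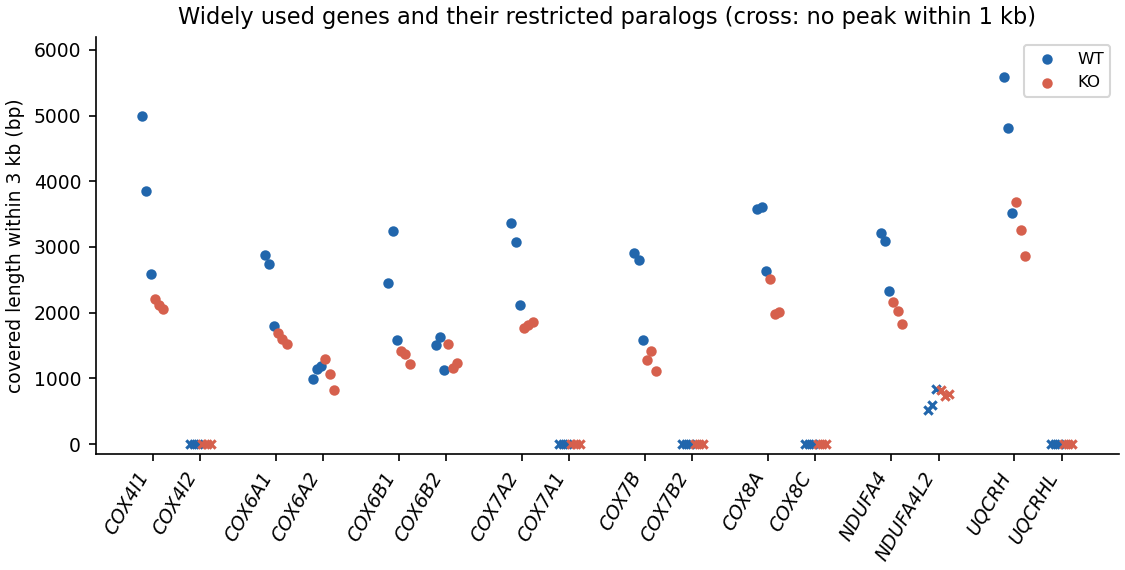
Covered length within 3 kb of the 5′ end (y axis, bp) for 8 pairs of a widely used gene and its restricted paralog (x axis), 1 point per library, WT in blue and KO in red in the order of the replicates. Crosses are genes with no peak within 1 kb, and of the restricted paralogs COX6A2 and COX6B2 alone carry dots.

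The sequence just upstream of the 5′ end is shown for COX8A and for 3 restricted paralogs, to set a marked widely used promoter beside unmarked and marked restricted ones. CpG dinucleotides, which are dense in most H3K4me3-marked promoters, are in capitals, and each stretch is the 150 bases before the 5′ end, 5′ to 3′, from RefSeq promoters on GRCh38.p14.
COX8A, chr11:63974470-63974619, plus strand: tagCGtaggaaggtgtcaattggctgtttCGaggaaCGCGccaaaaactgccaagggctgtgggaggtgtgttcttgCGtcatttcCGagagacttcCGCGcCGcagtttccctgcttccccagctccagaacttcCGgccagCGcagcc
COX8C, chr14:93347032-93347181, plus strand: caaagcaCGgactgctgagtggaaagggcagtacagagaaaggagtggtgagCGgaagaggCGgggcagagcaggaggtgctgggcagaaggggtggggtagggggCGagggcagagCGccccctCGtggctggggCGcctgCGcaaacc
COX7B2, chr4:46909246-46909395, minus strand: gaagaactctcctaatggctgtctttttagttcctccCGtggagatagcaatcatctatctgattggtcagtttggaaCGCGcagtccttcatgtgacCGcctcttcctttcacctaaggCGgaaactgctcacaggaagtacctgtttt
COX6A2, chr16:31428361-31428510, minus strand: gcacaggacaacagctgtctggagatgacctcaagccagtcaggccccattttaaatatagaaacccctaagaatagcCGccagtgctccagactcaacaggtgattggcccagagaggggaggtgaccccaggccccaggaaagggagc
COX8A, marked in 6 libraries, held 11 CpG. COX8C and COX7B2, marked in none, held 8 and 5, and COX6A2, marked in 6, held 1. CpG number in this stretch therefore did not order these 4 promoters by the mark. The RefSeq table matched 85 of the 107 genes at their 5′ end, and its windows ran from 250 bases before to 50 after it. Over these 300 bases the 83 matched genes marked in all 6 libraries had a median of 23 CpG, with 5 to 42, and a ratio of observed to expected CpG of 0.85. All 9849 matched promoters marked in 6 libraries had a median of 28 CpG and a ratio of 0.87, and the 4122 marked in none had 5 and 0.28.

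The marked promoters were then searched on both strands for exact matches to short motifs, as a description. The NRF1 core GCGCATGC was present in 17 of the 83 genes (20.5%), against 5.95% of the 9849 promoters marked in 6 libraries and 4.48% of all 14576 matched promoters. The YY1 core AAGATGG was present in 20 (24.1%), against 7.90% and 6.68%. The ETS core CCGGAAG, the letters GABP binds, was present in 26 (31.3%), against 20.4% and 15.0%. The share with each of these 3 motifs was higher in the set than among marked promoters at large, and no test was run. The ETS and YY1 cores can share their letters AAG, so a single stretch can count for both. The NFY box CCAAT was in 34.9% against 36.7%, the GC box GGGCGG in 63.9% against 77.0% and TATAAA in 8.43% against 4.51%. The telomeric repeat unit TTAGGG, of the kind ZBTB48 binds at telomeres, was present in 9 of the 83 genes (10.8%) against 7.87%. They were ATP5IF1, ATP5MJ, COX6A2, COX20, NDUFA2, NDUFA11, NDUFAB1, UQCR11 and UQCRH. No ZBTB48 binding data were used here, so a match does not show that ZBTB48 binds there.

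The NRF1 and ETS matches are shown in capitals for COX5B, the zinc-binding subunit of complex IV, SDHB, the iron-sulfur subunit of complex II, and the complex I assembly factor NDUFAF4, in the 150 bases before the 5′ end.
COX5B, chr2:97645912-97646061, plus strand: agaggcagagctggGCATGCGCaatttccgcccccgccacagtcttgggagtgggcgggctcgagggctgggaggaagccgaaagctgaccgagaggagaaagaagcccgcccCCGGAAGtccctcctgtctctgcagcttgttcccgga
SDHB, chr1:17054033-17054182, minus strand: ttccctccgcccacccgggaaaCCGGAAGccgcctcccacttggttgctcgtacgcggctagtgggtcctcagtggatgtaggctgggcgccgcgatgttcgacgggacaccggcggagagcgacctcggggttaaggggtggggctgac
NDUFAF4, chr6:96897892-96898041, minus strand: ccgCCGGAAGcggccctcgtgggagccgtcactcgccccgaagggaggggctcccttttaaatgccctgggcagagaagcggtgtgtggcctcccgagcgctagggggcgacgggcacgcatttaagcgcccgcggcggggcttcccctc
The first block of capitals in COX5B is the NRF1 core on the other strand and the second is the ETS core. In the 150 bases shown, SDHB and NDUFAF4 hold 1 ETS core each and no NRF1 core. Both do have the NRF1 core in the longer window that was searched, outside the stretch shown. SDHB has the YY1 core there as well. All 3 promoters were called in 6 libraries, COX5B with 3005, 2978 and 2049 bp in WT and 2021, 1762 and 1706 bp in KO.

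To ask whether loss of ZBTB48 went with a change in the extent of the mark, covered length was compared between genotypes. Over the 107 genes the median was 3114, 3081 and 1938 bp in WT and 1866, 1706 and 1620 bp in KO, so the WT mean was 2711 ± 670 bp (SD, n = 3), the KO mean 1731 ± 125 bp (SD, n = 3) and the difference 980 bp. Every WT library was above every KO library, and WT replicates 1 and 2 made most of the distance. With WT replicate 3 alone against the 3 KO libraries the difference was 207 bp. Over the 100 marked genes the medians were 3156, 3139 and 1986 bp in WT and 1882, 1761 and 1659 bp in KO, and the 13036 promoters marked in all 6 libraries had 3363, 3290 and 2001 bp in WT and 1954, 1785 and 1685 bp in KO. The set was thus covered by no more bp than promoters at large in any library, and the step between the lists was shared with them.

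**Figure D2:**
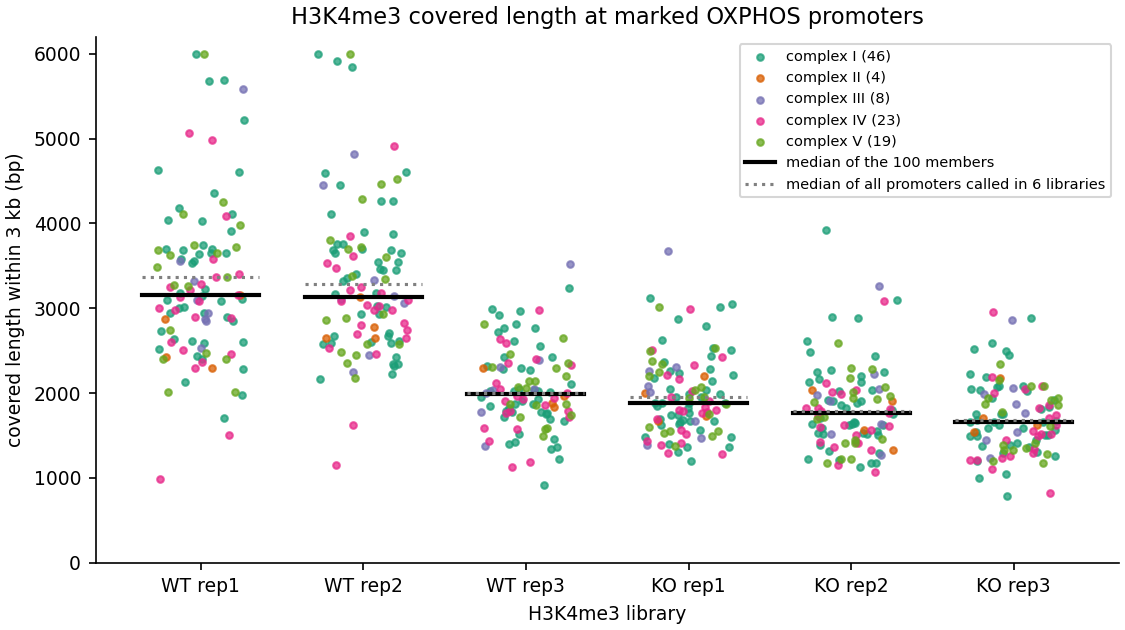
Covered length within 3 kb of the 5′ end (y axis, bp) of the 100 marked genes in each library (x axis), 1 point per gene and library, coloured by complex. The black bar is the median of the 100 genes and the dotted bar that of all promoters marked in 6 libraries, and both drop between WT replicates 1 and 2 and the other 4 libraries.

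By complex the medians over marked genes moved together. Complex I genes had 3204, 3426 and 1986 bp in WT and 1882, 1782 and 1659 bp in KO. Complex IV had 3089, 3030 and 1936 bp in WT and 1797, 1625 and 1518 bp in KO, and complex V had 3487, 3344 and 2071 bp in WT and 1953, 1895 and 1772 bp in KO. In complex III, WT replicate 3 with 2038 bp lay below KO replicate 1 with 2049 bp, so the genotypes overlapped there. Complex II, with its 4 genes, had the shortest medians in WT replicates 1 and 2, 2653 and 2715 bp, and also in WT replicate 3 with 1924 bp, beside 1865, 1741 and 1666 bp in KO.

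Gene by gene, every WT value was above every KO value at 68 of the 101 genes with any coverage (67.3%), against 50.8% of all 14422 promoters with coverage. No gene had every KO value above every WT value, against 0.111% of all promoters. Among promoters marked in all 6 libraries the shares were 68 of 100 and 54.8%. WT replicate 1 exceeded each KO library at 98 of the 100 genes and WT replicate 2 at 99. WT replicate 3, the limiting library for this count, did so at 68, against 55.8% of all promoters marked in 6 libraries. With 3 libraries against 3, the exact permutation test cannot give a p under 0.1, and the lowest p adjusted over the 14422 promoters by the Benjamini-Hochberg method was 0.196, so no gene passed a threshold of 0.05.

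A few subunits fixed for description, among them those that carry redox groups or catalytic sites, illustrate the spread. SDHA, the flavoprotein of complex II, had 3160, 3137 and 2297 bp in WT and 2197, 2037 and 2179 bp in KO. NDUFV1, the flavin subunit of complex I, had 3004, 3355 and 1698 bp in WT and 1685, 1528 and 1504 bp in KO. In both genes the genotypes did not overlap, but WT replicate 3 led the highest KO library by little in NDUFV1. UQCRFS1, the Rieske iron-sulfur protein of complex III, had 2945, 3109 and 2033 bp in WT and 2012, 1974 and 1872 bp in KO. ATP5F1B, the catalytic subunit of ATP synthase, had 2740, 2490 and 1714 bp in WT and 1750, 1461 and 1285 bp in KO. Here WT replicate 3 fell below KO replicate 1 and the genotypes overlapped (exact permutation p = 0.2). Of the other subunits in that list, NDUFS1, SDHB, SDHC, UQCRC2, COX4I1, COX5B and ATP5F1A had every WT value above every KO value, while SDHD and UQCRC1 overlapped.

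The peaks sat around and mostly downstream of the 5′ end. At 500 bp downstream, 100 of the 100 marked genes were under a peak in every library. At 1500 bp downstream the share was 79.0, 84.0 and 11.0% in WT and 7.0, 6.0 and 6.0% in KO, while all promoters marked in 6 libraries had 76.4, 75.8 and 26.8% in WT and 23.4, 18.5 and 15.7% in KO. At this distance the share was thus lower than among promoters at large in the 4 lists of lower fold enrichment and higher in WT replicates 1 and 2, without a test of the difference. The median peak border lay 1786, 1749 and 1136 bp downstream in WT and 1086, 1028 and 981 bp downstream in KO, so WT replicate 3 lay near the KO libraries and WT replicates 1 and 2 apart from both.

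**Figure D3:**
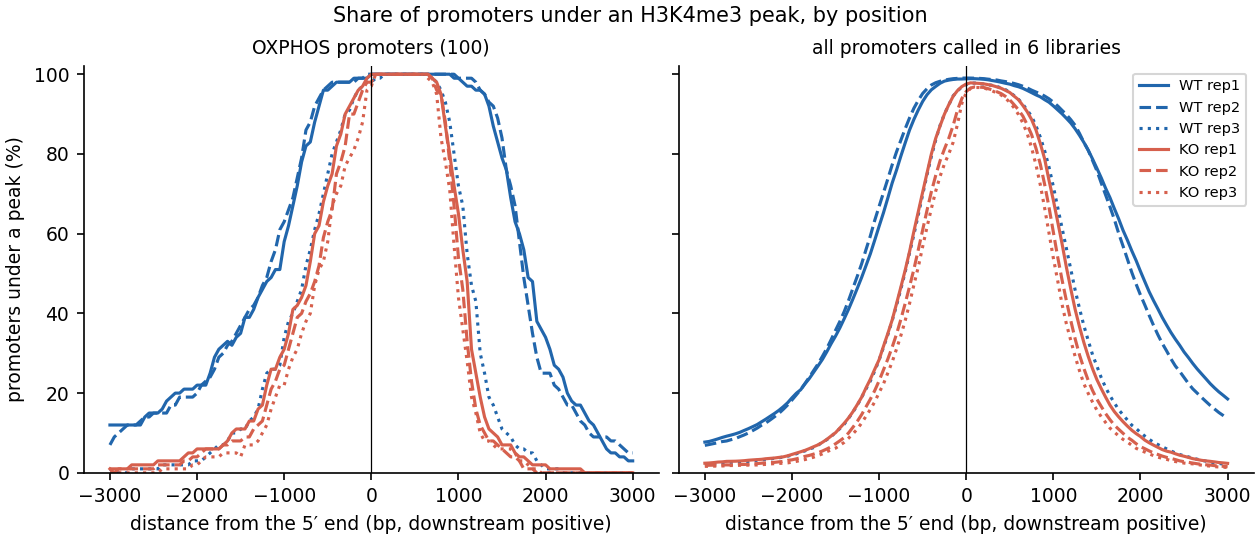
Share of promoters under a peak (y axis, %) against distance from the 5′ end (x axis, bp, downstream positive) for the 100 marked genes on the left and all promoters marked in 6 libraries on the right, 1 line per library. The 2 upper lines are WT replicates 1 and 2, and WT replicate 3 runs with the KO libraries in both panels.

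Many of these genes share their promoter region with a neighbour. A protein-coding 5′ end of the opposite direction lay within 1 kb of 31 of the 100 marked genes, against 14.0% of all promoters marked in 6 libraries, and another protein-coding 5′ end of either direction lay within 6 kb of 52 of them, against 26.0%. The count within 6 kb includes readthrough genes as neighbours, such as ATP5MF-PTCD1 at 3 bp from ATP5MF. ATP5PF, a stalk subunit of ATP synthase, lies 68 bp from GABPA, which encodes the DNA-binding subunit of GABP, UQCRH lies 82 bp from LRRC41 and COX4I1 151 bp from EMC8. At the 31 genes the mark reached farther upstream. Their median upstream extent was 1897, 1863 and 1236 bp in WT and 1215, 1134 and 1078 bp in KO, against 939, 998 and 610 bp and 582, 482 and 472.5 bp at the other marked genes. In each library the 31 had the larger upstream median, and covered length at such genes cannot be assigned to a single direction of transcription. The same order held among all promoters marked in 6 libraries. Those with such a neighbour had 2120, 2025 and 1303 bp in WT and 1271, 1200 and 1145 bp in KO. The others had 1081, 1147 and 642 bp in WT and 647, 560 and 518 bp in KO. ATP5PF and GABPA had the same covered length in every library, from 4258 bp in WT replicate 1 to 2344 bp in KO replicate 3.

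To take each value relative to its own list, covered length was divided by the library's own median over the 13036 promoters marked in all 6 libraries, which gives a scaled length without unit. A single divisor does not remove list width equally at every promoter. In bp, the marked restricted paralogs COX6A2 and COX6B2 had medians of 1248, 1389 and 1161.5 in WT and 1407.5, 1111.5 and 1033 in KO. Their scaled medians were 0.37, 0.42 and 0.58 in WT and 0.72, 0.62 and 0.61 in KO. On this scale every WT value was above every KO value at 5 of the 101 genes (4.95%), against 5.53% of all promoters. Every KO value was above every WT value at 14 (13.9%), against 12.9%. Both shares were near those of all promoters, and the lowest adjusted p for scaled length (exact permutation test, Benjamini-Hochberg) was 0.543. The WT minus KO difference had a median of -0.03 over the 100 marked genes, with quartiles of -0.09 and 0.02, and of -0.03 over all marked promoters. With WT replicate 3 alone, 27 of the 101 genes (26.7%) lay above each KO library and 25 (24.8%) below each of them, against 23.8% and 26.9% of 14281 promoters.

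The 5 genes higher in every WT library were NDUFS6, NDUFA7, NDUFC2 and its readthrough NDUFC2-KCTD14, which share values, and COX14. NDUFA7, an accessory subunit of complex I, had scaled lengths of 1.38, 1.40 and 1.48 in WT and 1.30, 1.37 and 1.32 in KO, so its groups were separated by little. NDUFC2, a membrane subunit of complex I, had 1.09, 1.08 and 1.01 in WT and 1.00, 0.85 and 0.98 in KO. COX14, an assembly factor that binds newly made subunit 1 of complex IV, had 0.93, 0.98 and 0.97 in WT and 0.73, 0.79 and 0.77 in KO, the clearest gap of the 5.

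The 14 genes with scaled length higher in every KO library were SDHD, UQCRC2, UQCRFS1, NDUFS1, NDUFS4, NDUFV3, NDUFB11, NDUFA11, NDUFAF2, COX20, COX6B2, ATP5PB, ATP5PO and ATP5MC2, from all 5 complexes. In bp none of them had that order. UQCRC2, UQCRFS1, NDUFS1 and ATP5PB even had every WT value above every KO value in bp. NDUFA11, a membrane-arm subunit of complex I, had the most negative scaled difference, -0.32, with 1.20, 1.25 and 1.38 in WT and 1.60, 1.74 and 1.46 in KO. In bp its genotypes overlapped, with 4038, 4113 and 2762 bp in WT and 3127, 3101 and 2452 bp in KO (exact permutation p = 0.3). COX6B2 followed with -0.22, although its genotypes overlapped in bp, and COX20, a chaperone of subunit 2 of complex IV, with -0.18. COX20 was also among the broadest promoters, with 5070, 4915 and 2979 bp in WT and 2996, 3088 and 2958 bp in KO.

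The largest positive scaled differences were at ATP5F1D, NDUFAF8 and NDUFS8 and rested on WT replicates 1 and 2. ATP5F1D, the delta subunit of the ATP synthase stalk, was covered over all 6001 bp of the window in both of them, by 2059 bp in WT replicate 3 and by 2528, 1695 and 1352 bp in KO. In WT replicates 1 and 2 a single peak ran past both ends of its window, and in the other 4 lists there were 2 separate peaks. NDUFAF8, an assembly factor of complex I, had 5692, 5915 and 2431 bp in WT and 2372, 2254 and 2079 bp in KO. NDUFS8, an iron-sulfur subunit of complex I, had 5674, 5849 and 2425 bp in WT and 2436, 2275 and 2079 bp in KO. At these 3 genes WT replicate 3 lay among or next to the KO libraries. The broadest mean length was at NDUFAF3, an assembly factor of complex I, with 6001, 6001 and 2719 bp in WT and 3020, 3927 and 2586 bp in KO, and its genotypes overlapped too (exact permutation p = 0.3).

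**Figure D4:**
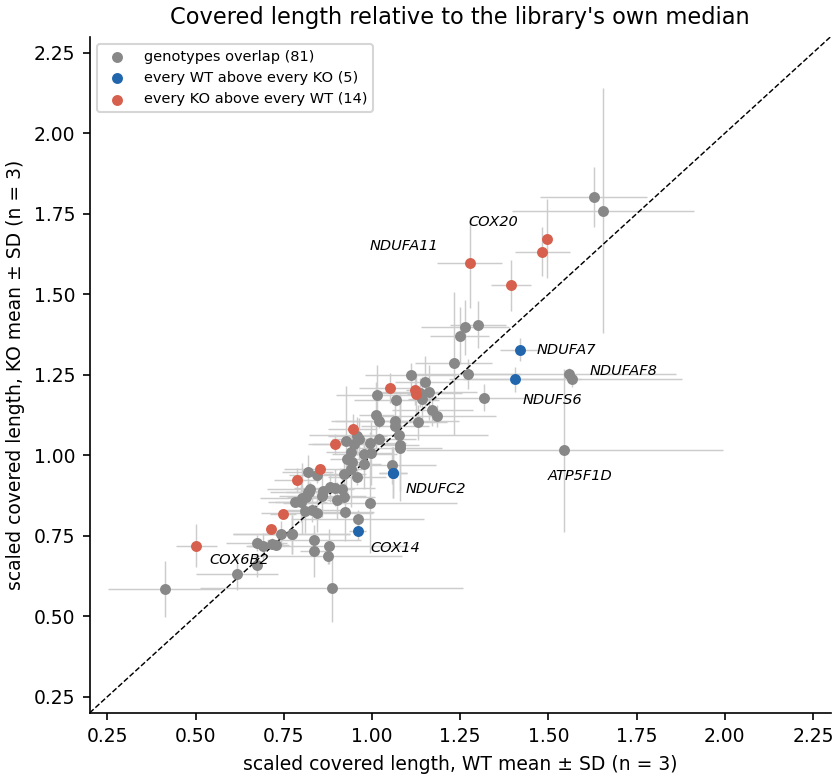
Scaled covered length of the 100 marked genes, mean ± SD of 3 KO libraries (y axis) against mean ± SD of 3 WT libraries (x axis), both without unit, with the dashed line at equality. Points are blue at the 5 genes with every WT value above every KO value, red at the 14 with the opposite order and grey at the other 81, and they lie along the line.

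WT replicate 3 exceeded each KO library by at least 500 bp at 3 of the 101 genes, NDUFS6, COX14 and NDUFA6, against 5.53% of the 14281 promoters covered in any of these 4 lists. This comparison lies within lists of similar fold enrichment, was made with a single WT library and carries no test. Over the 100 marked genes the median lead of WT replicate 3 over the highest KO library was 59 bp, against 20 bp over all marked promoters.

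NDUFS6, an accessory subunit of complex I with its 5′ end at position 1801407 of chromosome 5 (GRCh38), had 4359, 4267 and 3243 bp in WT and 2504, 2172 and 2041 bp in KO, a difference of 1717 bp (exact permutation p = 0.1, adjusted p = 0.196). Its window also holds the 5′ end of MRPL36, a mitochondrial ribosomal protein gene, 1570 bp away. In WT replicate 3 a single peak ran from 2420 bp upstream to 822 bp downstream of NDUFS6 and covered both 5′ ends. In each KO library there were 2 peaks, in KO replicate 1 from 2476 to 1371 bp upstream and from 399 bp upstream to 998 bp downstream. The outer borders in KO were close to those of WT replicate 3, and the bp that differed lay between the 2 genes. A peak that is split or joined by the caller changes covered length in this way, and whether the signal between the peaks differed was not tested, since the lists hold no signal.

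COX14, at position 50112236 of chromosome 12, had 3138, 3212 and 1938 bp in WT and 1436, 1409 and 1292 bp in KO. Its peak ended 1689 bp downstream of the 5′ end in WT replicate 3 and 1157, 1138 and 1157 bp downstream in KO, while the upstream border of WT replicate 3, at 248 bp, lay within the 134 to 278 bp of KO. NDUFA6, an accessory subunit of complex I at position 42090772 of chromosome 22, had 3225, 3165 and 2551 bp in WT and 2049, 2023 and 1914 bp in KO. Its peak ended 1538 bp downstream in WT replicate 3 and 1107, 1083 and 985 bp downstream in KO. At both genes the WT excess in this list lay mainly on the downstream side. On the scaled measure NDUFA6 overlapped between genotypes, with 0.96, 0.96 and 1.27 in WT and 1.05, 1.13 and 1.14 in KO.

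MTFP1, the known mitochondrial target of ZBTB48, lies at position 30425768 of chromosome 22 and had 4309, 4195 and 4000 bp in WT and 3090, 1805 and 3062 bp in KO (exact permutation p = 0.1, adjusted p = 0.196). On the scaled measure the genotypes overlapped, with 1.28, 1.28 and 1.999 in WT and 1.58, 1.01 and 1.82 in KO. The upstream borders of WT replicate 3 and the 3 KO libraries were within 2789 to 2830 bp of the 5′ end. Downstream, the peak ended at 1308, 1194 and 1169 bp in WT and at 296 and 254 bp in KO replicates 1 and 3, and in KO replicate 2 it ended 985 bp before the 5′ end. WT replicate 3 led the highest KO library by 910 bp, more than the 739 bp of NDUFS6 and the 502 bp of both COX14 and NDUFA6. The oxidative phosphorylation genes whose 6 scaled lengths were nearest to those of MTFP1, by mean absolute difference, were NDUFS6, NDUFB11 and NDUFV2. This distance compares levels and not the WT minus KO difference, and NDUFB11 was scaled higher in every KO library. Where the 5′ end of MTFP1 was bare in KO replicate 2, those of COX14, NDUFA6 and NDUFS6 were under a peak in all 6 libraries. COX7B, a small subunit of complex IV, had its 5′ end bare in KO replicates 2 and 3 but in WT replicate 3 as well.

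**Figure D5:**
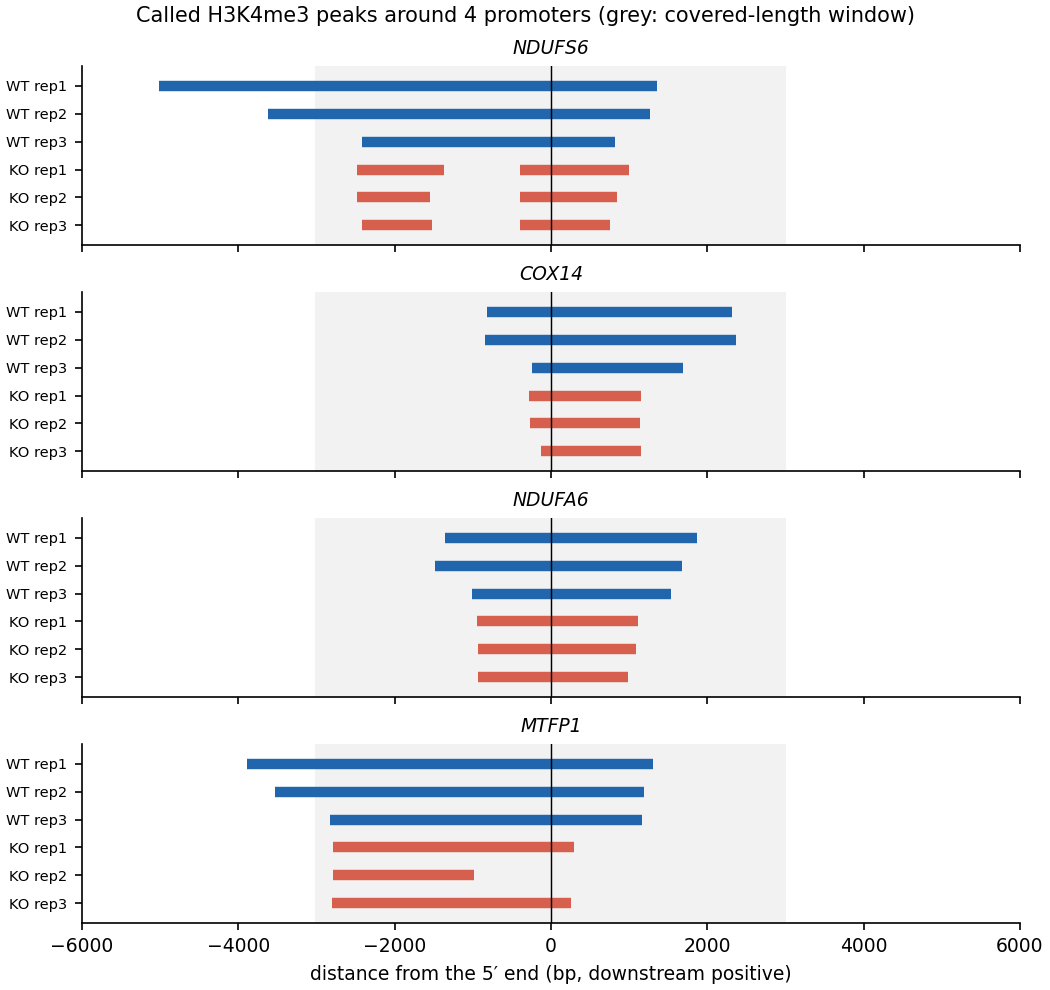
Called peaks (bars) in each library (y axis) around the 5′ ends of NDUFS6, COX14, NDUFA6 and MTFP1 (x axis, bp, downstream positive), WT in blue and KO in red, with the window used for covered length in grey. NDUFS6 has 1 peak in WT and 2 in KO, COX14 and NDUFA6 end earlier downstream in KO, and MTFP1 ends at 296 or 254 bp downstream or before the 5′ end in KO.

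Other genes of the pathway were counted by list, beside the shares of all promoters (65.1% called in 6 libraries; in bp, 50.8% with every WT above every KO; scaled, 5.53% and 12.9% with every WT or every KO higher). All 30 assembly factors named outside the symbol rule were called in 6 libraries, and 21 had every WT length above every KO length in bp. On the scaled measure 4 of them, SCO2, PET100, TMEM70 and COA5, were higher in every WT library, and 2, PET117 and LYRM7, in every KO library. SCO2, which delivers copper to complex IV, had 6001, 6001 and 3652 bp in WT and 2704, 2547 and 2652 bp in KO. COA5, an assembly factor of complex IV, had 4904, 4176 and 3447 bp in WT and 2302, 2153 and 2058 bp in KO, so in both WT replicate 3 stood clear of the KO libraries.

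Of 9 electron carriers and donors, 8 were called in 6 libraries, and PRODH, the proline dehydrogenase, in none. In bp 4 of the 9 were longer in every WT library. Scaled length was higher in every KO library at ETFB and ETFDH of the electron transfer flavoprotein route and higher in every WT library at none. All 12 genes that replicate and express mitochondrial DNA were called in 6 libraries, with 4 of them longer in bp in every WT library and, scaled, POLG higher in every KO library. All 9 transcription regulators of the pathway were called in 6, and 6 of them were longer in bp in every WT library. TFAM, which packages mitochondrial DNA, had 3260, 2881 and 2219 bp in WT and 1953, 1949 and 1721 bp in KO. The gene of NRF1 itself had 3982, 3953 and 2449 bp in WT and 2439, 2213 and 2077 bp in KO, with scaled lengths of 1.18, 1.20 and 1.22 against 1.25, 1.24 and 1.23. Scaled, ESRRA and PPARGC1A were also higher in every KO library.

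Matches to the motifs were set beside the genotype comparison. At the 9 genes with TTAGGG the median scaled WT minus KO difference was -0.09, with 0 genes higher in every WT library and 2, COX20 and NDUFA11, higher in every KO library. At the 17 genes with the NRF1 core it was -0.05, with 1 and 2 genes, and at the 26 with the ETS core -0.04, with 0 and 2 genes. At the 20 with the YY1 core it was -0.05, with 1 and 4 genes. For the NFY box (29 genes), the GC box (53) and TATAAA (7) it was -0.06, -0.03 and -0.02, with 1 and 5, 3 and 10, and 2 and 1 genes. Over all promoters with coverage the 2 shares were 5.53% and 12.9%, and the median over the 100 marked genes was -0.03. In bp, every WT value was above every KO value at 2 of the 9 genes with TTAGGG. The NRF1, ETS and YY1 cores gave 10 of 17, 19 of 26 and 14 of 20. The NFY box, the GC box and TATAAA gave 18 of 29, 37 of 53 and 6 of 7. Over all 101 genes with coverage the share in bp was 67.3%, and over all promoters 50.8%. Neither the medians nor these counts were tested against other genes.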

How the data were processed

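H3K4me3 libraries of 3 WT and 3 ZBTB48 KO clones were grouped by the genotype in their labels, and 2 WT inputs were not used here. The authors used Trimmomatic for trimming, Bowtie2 2.3.5.1 for alignment to GRCh38 and MACS2 2.1.1.2 for broad peaks, called for each library at the default q-value after duplicate, unmapped and multimapping reads had been dropped. Whether an input was given to the caller is not stated in the sources used here. For each peak the deposited lists hold a score, the fold enrichment as a ratio, and p and q on a −log10 scale. The score was not used, and the authors' fold enrichment and −log10 q served only to filter or describe peaks within a list. The lists hold no counts and the methods give sequencing depth only as a range over samples, so the depth of the filtered reads in each library is unknown and a read-based test was not possible.

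Promoters were 5′ ends of MANE Select or canonical transcripts of 20033 protein-coding genes of GENCODE release 44. A promoter was called, or marked, when at least 1 bp of a peak fell within 1 kb of it, and covered length was measured in the 6001 bp window centred on it. Each promoter was tested by a two-sided exact permutation test over the 20 ways to assign 6 libraries, adjusted by the Benjamini-Hochberg method over 14422 promoters. With 1 library per clone, the p-values cover the spread between clones together with that between ChIP libraries and peak lists. Genes were named by rule: uncalled genes, paralog pairs, 14 subunits, the 3 largest scaled differences in each direction, leads of WT replicate 3 of at least 500 bp, and the 3 broadest and narrowest promoters. Genes separated on the scaled measure, genes with TTAGGG, genes beside a neighbour, NDUFAF4 and the pathway genes given with values were chosen after their values were seen. The values of 1 subunit and 1 marker are not reported here singly. The members and lists were chosen with earlier results of these data known. The replicate numbers did not pair the libraries, with correlations of deviations of 0.01, -0.03 and 0.08. The counting was tested on simulated peaks. Python 3.11.15, numpy 2.4.6, scipy 1.17.1, pandas 2.3.3 and matplotlib 3.10.9 were used.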

Additional observations from a re-analysis of the deposited data

How the results depend on the processing

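Every count is of genes, with the share of all promoters in parentheses where it differs from the report. A fold enrichment of at least 4 left 64 called in all 6 libraries (36.4%) and a WT excess of 8 called. On the scaled measure 3 were higher in every WT library (3.78%) and 9 in every KO library (7.08%). This minimum lies near the median fold enrichment of 4 lists, 4.19 to 4.65, and well below the 13.4 and 14.0 of WT replicates 1 and 2. The difference in calls over all promoters was not computed at this minimum. Exchanging the windows gave 45 longer in bp in every WT library (38.7%), with 319.7 bp between the medians, and 2 (7.47%) and 23 (22.7%) scaled. Counting subunits only gave 3 higher in every WT library among 77 genes. Ranking within the library gave 9 higher in every KO library (11.9%). WT replicate 3 against KO gave a difference of 207.3 bp, with 27 and 25 scaled. Of the 55 genes with no other 5′ end within 6 kb, a choice made after seeing the data, 49 had coverage. They gave 34 in bp and 1 and 7 scaled, and the shares of all promoters were not limited to such promoters. With the replicate number as a block, which the data did not bear out as a pairing, the counts were 96 in bp (85.6%) and 10 (11.2%) and 29 (24.1%) scaled. Leaving out each library in turn gave median differences of 778.8 to 1367 bp, 68 to 98 genes in bp, 5 to 17 scaled higher in WT and 15 to 43 scaled higher in KO. Without WT replicate 3 the counts were 98 (90.9%), 17 (16.2%) and 43 (32.8%), without KO replicate 1 they were 91 (80.2%), 9 (11.7%) and 23 (21%), and without KO replicate 2 the scaled WT count was 8 (7.63%). Leaving out a library makes separation easier by construction, and for the other shifts the cause was not tested. The −log10 q minimum, equal list lengths and the 5′ end of any transcript left each count within 1.5 times. At 43 named genes, 22 of 516 values under alternatives no longer separated the genotypes, 12 of them at the fold enrichment minimum and 10 with exchanged windows. Another 21 newly separated them, 12 without WT replicate 3, 7 without KO replicate 1, 1 without KO replicate 2 and 1 with exchanged windows. A further 23 moved by more than the spread, all of them with WT replicate 3 against KO. The number of reads behind each border is unknown, which limits every length.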
